A study of Mus musculus with 6 samples.

Results

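The S100 genes encode small calcium-binding proteins, and 8 of them were followed here among the 15824 genes of the deposited expression table: S100a1, S100a4, S100a6, S100a8, S100a9, S100a10, S100a11 and S100a13. They were chosen by name, with earlier results of these data known, and all 8 were listed and passed the filter on low counts. RNA was sequenced from alveolar macrophages, the resident phagocytes of the lung airspaces, isolated by flow cytometry from mice aged 8 weeks, in 3 wild-type libraries (WT) and 3 libraries of Men1 knockout mice (KO). The Men1 product, menin, is a scaffold of histone methyltransferase complexes, and the series compares the genotypes to find genes that depend on it in these cells. The sources used here give no strain, sex, knockout allele or Cre driver, and it is not stated that each library had its own mouse. The p-values therefore reflect the spread among these 6 libraries alone, and that spread may be technical.

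S100 proteins carry a pair of EF-hand motifs, loops that bind calcium, and most work as dimers that bind a target protein when calcium rises. S100A8 and S100A9 join into calprotectin, which is stored in large amounts by neutrophils and made by monocytes, withholds zinc and manganese from microbes, and acts outside the cell as a danger signal through the receptors TLR4 and RAGE. S100A4, S100A6, S100A10 and S100A11 are expressed in many cell types, macrophages and fibroblasts among them, and bind the cytoskeleton, annexins and the plasma membrane. S100A1 is best known from striated muscle, and S100A13 for its part in the release of proteins that lack a signal peptide.

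All 8 genes lie on chromosome 3 in GRCm38.p6, the build that the submitters' processing notes name. S100a1 (positions 90511034 to 90514330), S100a13 (90514233 to 90524581), S100a4 (90603770 to 90606045), S100a6 (90612894 to 90614414), S100a8 (90669071 to 90670034) and S100a9 (90692630 to 90695721) share a stretch of 185 kb. S100a11 (93520496 to 93526288) and S100a10 (93555117 to 93564645) follow 2.82 Mb further on. S100a1 and S100a13 are transcribed in opposite directions and overlap by 98 bases in RefSeq, so without stated strand use reads from the overlap cannot be assigned to 1 of them with certainty.

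The RefSeq promoter table of the same build held 7 of the 8 members, all but S100a10, with 250 bases before and 50 after the start. The stretches of S100a8, S100a9 and S100a4 are shown, since the first and second of these genes rose in KO and the third, the most abundant member, did not pass the test. Each is printed 5′ to 3′ on the gene's strand up to the earlier of the starts given by RefSeq and GENCODE, save a stretch of 30 bases of S100a8 that lies between the starts, 93 bases apart, and capitals mark matches to the motifs searched.
S100a8, chr3:90668821-90668977, plus strand: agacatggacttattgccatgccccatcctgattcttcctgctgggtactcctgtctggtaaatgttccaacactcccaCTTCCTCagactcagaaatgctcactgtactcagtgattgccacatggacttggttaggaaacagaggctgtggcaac
S100a8, the 30 bases around its TATA box, chr3:90669029-90669058, plus strand: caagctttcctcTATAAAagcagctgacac
S100a9, chr3:90695722-90695971, minus strand: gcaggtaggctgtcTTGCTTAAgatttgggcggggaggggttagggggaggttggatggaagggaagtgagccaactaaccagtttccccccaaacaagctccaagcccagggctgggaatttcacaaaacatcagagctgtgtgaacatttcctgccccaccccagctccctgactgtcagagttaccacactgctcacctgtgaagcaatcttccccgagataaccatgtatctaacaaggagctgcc
S100a4, chr3:90603520-90603769, plus strand: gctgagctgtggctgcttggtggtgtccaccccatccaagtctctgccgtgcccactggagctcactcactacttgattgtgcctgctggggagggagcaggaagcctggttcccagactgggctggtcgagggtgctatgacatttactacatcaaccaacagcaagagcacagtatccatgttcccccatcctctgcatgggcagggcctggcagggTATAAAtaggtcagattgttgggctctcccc

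Both strands of each window of 300 bases were searched for 5 motifs. TATAAA, the core of the TATA box, matched in S100a8, S100a9 and S100a4 and in 13.6% of the 32851 windows of the table. It began 30 bases before the RefSeq start in S100a8 and 31 bases before it in S100a4, and at the first base after it in S100a9, beyond the printed stretch. TTGCNNAA, bound by C/EBP factors, matched in S100a9 only, 236 bases before the start, against 10.8% of all windows. GAGGAAG, bound by the macrophage factor PU.1, matched in S100a8 and S100a4 (13.6% of windows), TGANTCA, bound by AP-1, in S100a11 (7.81%), and TTCNNNGAA, bound by STAT factors, in no member window (8.3%). These matches describe letters in a window and show no binding.

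Total counts per library lay between 19955232 and 20151985. Men1 had 594 to 639 counts in WT and 149 to 165 in KO, where 4 Y-linked genes (Eif2s3y, Ddx3y, Kdm5d and Uty) had 0 to 2 counts each, against 283 to 1530 in WT. Genotype and the presence of Y-linked transcripts therefore cannot be told apart. Of 21 markers chosen for the labelled cell type, 17 were listed, and Car4, Krt79, Krt19 and Cidec were not. The 17 listed markers ranged from abundant to nearly missing, and of the 12 tested 5 were higher and 6 lower in KO, with a median log2 fold change of -0.03. Of all genes tested, 69.2% passed in either direction. Trim29 (named after its values were seen) entered the test only through KO, where it was higher. Lpl, a lipase gene, had the highest level in the list, falling from 1982 ± 15.03 to 1776 ± 11.3 CPM. Marco, a scavenger receptor gene, rose from 172 ± 2.17 to 1137 ± 22.8 CPM and Mrc1, the mannose receptor gene, from 95.4 ± 1.51 to 130.7 ± 5.43 CPM. The transcription factor gene Bhlhe41 fell from 207 ± 4.34 to 127 ± 0.985 CPM and Atp6v0d2 from 118.7 ± 3.99 to 60.8 ± 0.928 CPM. Siglecf, a lectin gene typical of these cells, had a level of 2.06 ± 0.381 CPM for WT and 1.34 ± 0.154 for KO (CPM, counts scaled to library size; mean ± SD, n = 3, as in all levels below), and 4 of 17 markers (Fabp1, Ear2, Ear6 and Plet1, named like Siglecf and Lpl after their values were seen) had at most 3 counts in every library. The summed level of the list was 2670.2 to 2704 CPM in WT and 3334 to 3353 CPM in KO, where Marco alone rose by more than the sum. General macrophage genes were abundant, with a summed level of 28800 to 29999 CPM in WT and 34370 to 35162 CPM in KO.

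S100a8 and S100a9 had the highest fold changes of the 8 genes, and both were higher in every KO library than in any WT library. S100a8 rose 1.87-fold and S100a9 3.19-fold. S100a13, S100a1, S100a6 and S100a11 rose by smaller amounts, from 1.37-fold down to 1.11-fold, where S100a11 turned to a log2 difference of -0.010 on TPM, a unit that scales by transcript length and total. S100a10 was 1.1-fold lower in KO. S100a4, the member with the most reads, did not pass the test.

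In all, 6 members were higher and 1 was lower in edgeR's quasi-likelihood test at an adjusted p of 0.05. Over the 11817 genes tested, 69.2% passed in either direction, 34.4% higher and 34.9% lower. Passing is therefore common in these libraries, and the count of 7 of 8 members is to be read against that share. The members' median log2 fold change was 0.25, against 0.0014 over all genes tested, and describes genes chosen with results of these data known. Of all tested genes, 8.2% passed with at least a 2-fold change, and S100a9 was the only member that did. The plot of levels by library shows how closely the libraries of a group lay together.

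**Figure D1:**
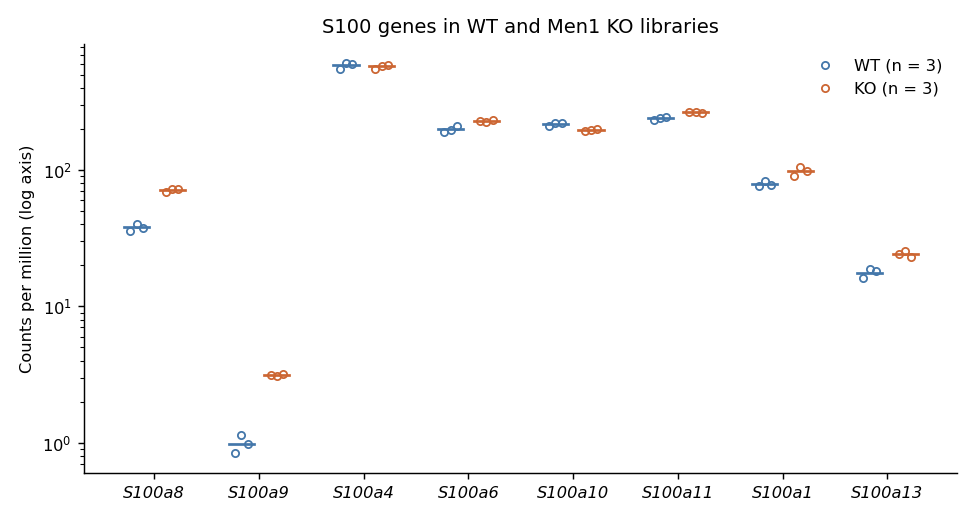
Level of each S100 gene in CPM (log axis) in the 3 WT and 3 KO libraries; each circle is a library and each line a group mean. S100a8 and S100a9 sit apart between the groups, while the circles of S100a4 overlap.

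S100a8 encodes the calprotectin subunit also called MRP8. Its counts were 733, 815 and 774 in WT and 1357, 1409 and 1415 in KO (libraries 1, 2 and 3 in this order, here and below). Every KO library stood above every WT library, and the lowest KO count exceeded the highest WT count by more than the spread within either group. The mean rose from 37.9 ± 2.04 to 70.98 ± 1.82 CPM, or by 0.90 on the log2 scale (SE 0.041). The adjusted p of 1.37e-20 is from edgeR's quasi-likelihood test, adjusted over all genes tested, as are those below unless another test is named. Of all genes tested, 90.3% had a smaller absolute log2 fold change.

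S100a9 encodes the other calprotectin subunit, MRP14. Its counts were 17, 23 and 20 in the WT libraries and 62, 60 and 63 in the KO libraries. The groups did not overlap, but the counts were low, so that counting error alone is 22.4% of a WT library's value and 12.7% of a KO library's. The mean rose from 0.98 ± 0.148 to 3.14 ± 0.072 CPM, or by 1.67 on the log2 scale (SE 0.19; adjusted p = 1.19e-09), and 96.8% of genes tested had a smaller absolute change. This was the highest fold change of a member and also the one with the highest standard error.

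The calprotectin genes were far from equal in these cells. Each S100a9 count was matched by 43.1, 35.4 and 38.7 S100a8 counts in WT and by 21.9, 23.5 and 22.5 in KO. The KO libraries all had the lower ratio, since S100a9 changed by more than S100a8. On the TPM scale, which divides by transcript length, S100a8 was 95.4 ± 11.7 times S100a9 in WT and 54.5 ± 1.23 times in KO (mean of the ratios ± SD, n = 3). That scale rests on the effective length behind the deposited FPKM and TPM values, which the counts and FPKM put at 75 to 84 bases for S100a8 and 188 to 199 bases for S100a9. The longest coding transcripts in GENCODE M21 have 486 and 519 bases, so a length-scaled level of S100a8 is raised by a much shorter divisor.

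S100a4 encodes metastasin, which binds non-muscle myosin and is also used as a fibroblast marker. Its counts were 11288, 12287 and 12281 in WT and 10924, 11329 and 11554 in KO. The groups overlapped, as WT library 1 lay below 2 of the KO libraries. The levels were 585 ± 27.4 CPM for WT and 574 ± 17.6 for KO, which is a log2 difference of -0.029 (SE 0.024; adjusted p = 0.30). Without WT library 1 the fold change was -0.07 on the log2 scale with an adjusted p of 0.00927, and on log2(TPM + 1) it was -0.19 (limma, adjusted p = 2.35e-05). S100a4 was the member missing from the authors' deposited heat map table of 6784 genes, which held the other 7.

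S100a6, calcyclin, binds annexins and a ubiquitin ligase adaptor. It had 3889, 4024 and 4292 counts in WT and 4534, 4431 and 4570 in KO, and the groups did not overlap. The level rose from 199 ± 9.33 to 229.8 ± 3.25 CPM (log2 0.21, SE 0.027; adjusted p = 2.43e-08). On log2(TPM + 1) the difference was 0.06 and did not pass (limma, adjusted p = 0.0887).

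S100a10, or p11, is the partner of annexin A2 at the plasma membrane, where the pair binds plasminogen, and it has lost the ability to bind calcium. It had 4254, 4519 and 4494 counts in WT and 3821, 3851 and 3941 in KO. Every KO library was lower than every WT library, although the fall was small. The level fell from 217 ± 6.98 to 197 ± 3.44 CPM (log2 -0.14, SE 0.026; adjusted p = 1.72e-05).

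S100a11, calgizzarin, binds annexin A1. It had 4746, 4908 and 5001 counts in WT and 5240, 5246 and 5127 in KO. The groups did not overlap, and the nearest libraries, WT 3 and KO 3, were at 244 and 261 CPM. The level was 239 ± 5.71 CPM for WT and 265 ± 3.49 for KO (log2 0.15, SE 0.024; adjusted p = 1.11e-06), and on log2(TPM + 1) the sign turned to -0.010 (limma, adjusted p = 0.731).

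S100a1 and S100a13 sit head to head at the start of the cluster. S100a1 had 1566, 1700 and 1585 counts in WT and 1774, 2051 and 1914 in KO, and rose from 79.2 ± 3.73 to 97.4 ± 7.37 CPM (log2 0.30, SE 0.040; adjusted p = 3.67e-08). Its KO libraries were the most variable of the 8 members relative to their mean, with a coefficient of variation of 7.24% against a counting error of 2.29%. S100a13 had 327, 380 and 372 counts in WT and 478, 494 and 454 in KO, and rose from 17.6 ± 1.39 to 24.2 ± 1.05 CPM (log2 0.46, SE 0.062; adjusted p = 4.64e-08). Neither gene's groups overlapped.

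The groups did not overlap for 6 members that were higher in KO and 1 that was lower. Among all genes tested, 35.4% had groups that did not overlap with KO higher and 35.8% with KO lower. Changes of the size seen for S100a6, S100a10 and S100a11 were common, since the median absolute log2 fold change of all genes tested was 0.24. The spread between the libraries of a group was narrow, with a common biological coefficient of variation of 1.66%. When a coefficient of 0.1 was assumed instead, 37.3% of all genes passed and so did 4 members, S100a8, S100a9, S100a1 and S100a13. The adjusted p-values of S100a6, S100a10 and S100a11 were then 0.17, 0.39 and 0.343 in edgeR's likelihood ratio test.

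Scaling also moved the members. On log2(TPM + 1) the median of all genes tested was -0.12, 20.8% of them passed as higher and 48.9% as lower in KO, and 4 members were higher and 2 lower. S100a8, S100a9, S100a1 and S100a13 were the higher members there, and S100a4 and S100a10 the lower ones. Relative to that median, S100a4 and S100a10 were still below the other genes and S100a11 above, as the plot of fold changes on both scales shows.

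**Figure D2:**
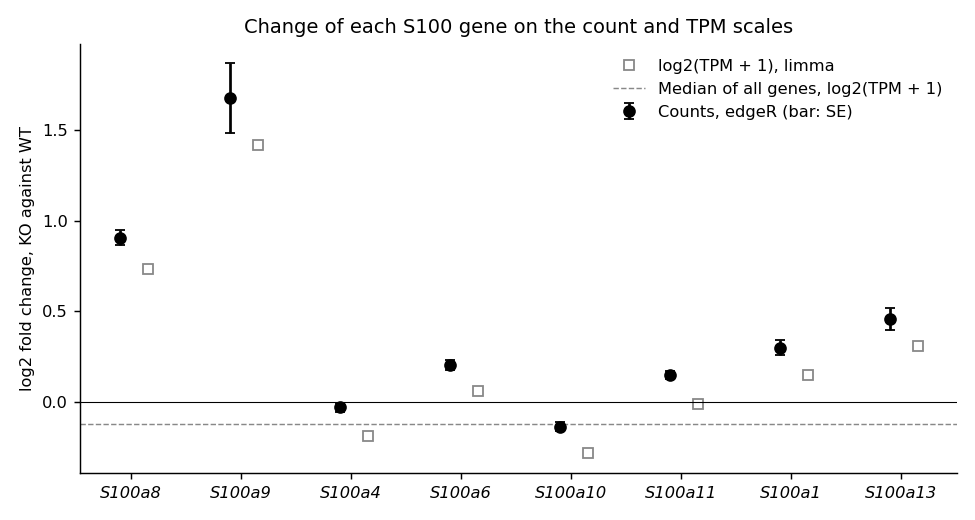
log2 fold change of KO against WT for each S100 gene from the counts (black points, bars are the SE of edgeR's fit) and on log2(TPM + 1) (open squares); the dashed line is the median of all genes tested on the latter scale. Every square lies below its point, and S100a11 moves from 0.15 to -0.010.

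Between genes, levels can be compared only per length, on the TPM scale. In WT the order was S100a4 at 4923 ± 81.3 TPM, S100a11 at 1957 ± 22.96, S100a10 at 979.8 ± 14.6, S100a6 at 743 ± 27.8, S100a8 at 685 ± 17.1, S100a1 at 403 ± 14.7, S100a13 at 66.2 ± 4.13 and S100a9 at 7.25 ± 0.918 TPM. No neighbours in this order overlapped between libraries. In KO the levels were 4327 ± 29.1 TPM for S100a4, 1944 ± 64.7 for S100a11, 1140.4 ± 23.8 for S100a8, 804 ± 6.57 for S100a10, 773 ± 13.7 for S100a6, 447 ± 28.3 for S100a1, 82.1 ± 3.86 for S100a13 and 20.9 ± 0.668 for S100a9. S100a8 thus moved from the fifth to the third place, above S100a10 and S100a6. S100a4 ranked 15 in WT and 19 in KO among all listed genes by mean TPM, while S100a9 ranked 7841 and 4589. The effective lengths implied by the deposited values, from 75 bases for S100a8 to 391 for S100a6, are short throughout, so that these ranks depend on how length was corrected.

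The neutrophil-type members and the broadly expressed ones were also set against each other within each library. S100a8 and S100a9 made up 3.01%, 3.15% and 2.96% of the summed CPM of 6 genes (these and S100a4, S100a6, S100a10 and S100a11) in WT, and 5.47%, 5.58% and 5.54% in KO. CPM is not corrected for length, so these are shares of reads, given for their change between the groups only. The mean log2 CPM of S100a8 and S100a9 minus that of the other four was -5.57, -5.36 and -5.52 in WT and -4.26, -4.27 and -4.25 in KO. The gap narrowed by 1.23 on the log2 scale, from -5.48 ± 0.11 to -4.26 ± 0.010 (SD, n = 3), so that the KO libraries differed from WT by far more than the spread within a group. No p is given, because the genes were chosen with results of these data known. Taken alone, S100a8 narrowed its gap to the other four by 0.86 and S100a9 by 1.59. The summed level of these 4 genes was 1241 ± 47.1 CPM for WT and 1266 ± 19.8 for KO, a difference smaller than the SD in WT. The sum joins S100a10, lower in KO, with S100a6 and S100a11, higher in KO, and holds for CPM only. On TPM, S100a4 went from 4923 ± 81.3 to 4327 ± 29.1 and S100a10 from 979.8 ± 14.6 to 804 ± 6.57. S100a6 and S100a11 did not pass on log2(TPM + 1).

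**Figure D3:**
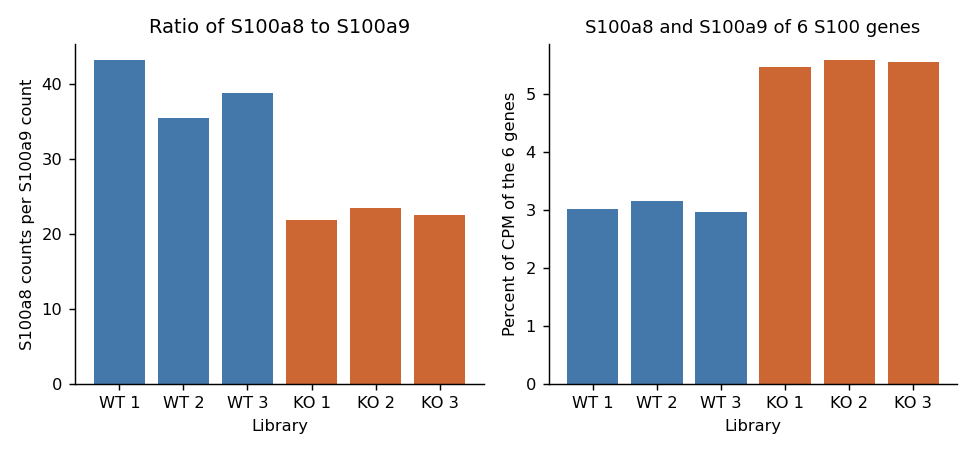
Left, S100a8 counts per S100a9 count in each library; right, the share of S100a8 and S100a9 in the summed CPM of 6 S100 genes (these, S100a4, S100a6, S100a10 and S100a11). The ratio is 35.4 to 43.1 in WT and 21.9 to 23.5 in KO, and the share rises from about 3.04% to 5.53%. Neither is corrected for length.

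Other members of the family were nearly silent. Of the other 10 S100 genes considered, 5 were listed. S100a3, S100a5, S100a14 and S100b had at most 2 counts in any library. S100a16 had 13, 15 and 12 counts in WT and 0, 1 and 1 in KO, a ratio of 19.2 (95% counting interval 4.99 to 164, exact, for counting error only), and it passed with an adjusted p of 4.04e-07. It lay below 1 CPM and entered the test only through the WT libraries, where it was higher, and with a minimum of 10 counts in every library it was not tested.

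Since S100a8 and S100a9 mark neutrophils, the other neutrophil markers were read in the same libraries. Of 29 neutrophil markers chosen, 27 were listed, and Ly6g and Azu1 were not. Of the 27 listed markers, 13 passed the low-count filter, with 7 higher and 6 lower in KO and a median log2 fold change of 1.20. Of all genes tested, 34.4% were higher and 34.9% lower. The summed level of the listed markers was 865 to 886 CPM in WT and 743 to 763 CPM in KO. Most of it came from the collagenase gene Mmp8, which fell from 800.0 ± 10.9 to 558 ± 10.7 CPM. Levels within the list ran from no counts to that of Mmp8, and a number of granule and surface genes had few counts. Camp, a cathelicidin gene, had 0, 4 and 2 counts in WT and 16, 7 and 15 in KO. Ngp had 1, 3 and 6 counts in WT and 17, 17 and 21 in KO, and Ltf, lactoferrin, had 2 or 3 in each WT library and 5 to 8 in KO. Elane, Retnlg, Stfa2, Stfa2l1, Itgb2l and Mrgpra2b had at most 3 counts in every library. The primary granule genes Mpo and Prtn3 had 12 to 21 counts in WT and 2 to 5 in KO. Mpo and Prtn3 entered the test only through WT and Ngp only through KO, in each case the group where they were higher.

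Some genes of the list had higher levels and followed S100a8 and S100a9. Lcn2, which encodes the iron-sequestering lipocalin 2, rose from 7.07 ± 0.053 to 51.6 ± 0.981 CPM. Csf3r, the G-CSF receptor gene, rose from 19.7 ± 0.538 to 63.3 ± 2.13 CPM, the gelatinase gene Mmp9 from 19.9 ± 0.503 to 53.2 ± 1.73 CPM, and Cd177 from 3.63 ± 0.637 to 15.5 ± 1.30 CPM. Padi4, an enzyme of protein citrullination, went the other way, from 11.1 ± 0.750 to 0.83 ± 0.208 CPM. So did Il1r2, from 3.23 ± 0.310 to 1.53 ± 0.308 CPM, and Trem1, from 3.33 ± 0.460 to 1.71 ± 0.277 CPM. Together with Mmp8, Mpo and Prtn3, these genes are the 6 lower markers, against 7 higher. The part of neutrophil RNA in the change of S100a8 and S100a9 was not tested.

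**Figure D4:**
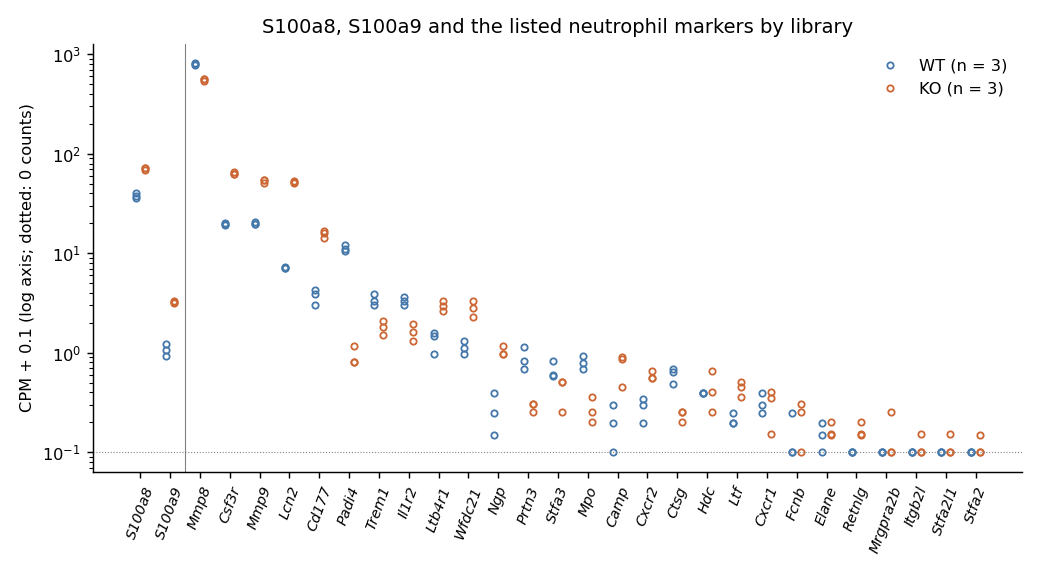
S100a8, S100a9 and 27 listed neutrophil markers in each library, as CPM + 0.1 on a log axis (dotted line, 0 counts). S100a8 lies far above S100a9 in both groups, and markers such as Elane and Retnlg lie at or near 0.

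Marker lists of other cells moved as well. Monocyte markers rose in 9 and fell in 2 of 12 tested members, and their sum went from 232 to 237 CPM in WT to 575 to 589 CPM in KO. Over all genes tested, 34.4% were called higher and 34.9% lower, and the counts of members here are to be read against that. In that list Hp, the haptoglobin gene, rose from 36.8 ± 0.441 to 260.2 ± 5.59 CPM and Ly6c2 from 15.9 ± 1.36 to 59.5 ± 0.962 CPM. Fibroblast and mural markers fell in 14 of 14 tested members, and their sum went from 115 to 118 CPM in WT to 21.5 to 24.6 CPM in KO. Of these 14, Lum, Pdgfra, Tagln and Postn (named after their values were seen) entered the test only through WT, where they were higher. The sums were 30.2 to 32.2 CPM in WT and 43.2 to 43.7 in KO for dendritic cells, 2.58 to 3.29 and 11.7 to 11.9 for T and NK cells, 9.22 to 10.2 and 14.01 to 14.5 for B cells, and 5.16 to 6.09 and 4.79 to 6.08 for epithelium. They were 6.49 to 8.20 CPM in WT and 7.92 to 9.09 in KO for mast cells, basophils and eosinophils, and 63.6 to 66.0 and 169.8 to 174 for red cells and platelets. In the T and NK list Cd4 rose from 1.65 ± 0.210 to 7.45 ± 0.040 CPM and Klrb1c from 0.065 ± 0.075 to 2.55 ± 0.142 CPM. Klrb1c entered the test only through KO. Cd3d, Cd3e, Cd3g, Cd8a, Nkg7 and Gzmb (named after their values were seen) had at most 6 counts in any library. Of the red cell and platelet markers, Ppbp, Pf4, Itga2b and Gp9 rose. The globin genes Hba-a1, Hba-a2, Hbb-bs and Hbb-bt, likewise named afterwards, had at most 8 counts. The part of any listed cell type in the S100 changes was not tested, and in bulk RNA fewer cells of a type and less RNA per cell cannot be told apart.

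Of 9 tested factors known to act on granule and calprotectin genes in myeloid cells, 5 were higher and 4 lower, with a median log2 fold change of 0.17, where 69.2% of all genes passed. On log2(TPM + 1) 3 were higher, and Cebpb and Stat3 (named after their values were seen) did not pass (limma, adjusted p = 0.136 and 0.399). Cebpe, likewise named afterwards, entered the test only through WT, where it was higher. The C/EBP genes Cebpa and Cebpd rose from 93.1 ± 1.35 to 143 ± 5.87 CPM and from 26.7 ± 1.70 to 51.7 ± 1.82 CPM. Spi1, which encodes PU.1, rose from 330.1 ± 5.01 to 439 ± 2.06 CPM. Hif1a, the hypoxia factor gene, fell from 165 ± 1.64 to 129.5 ± 4.29 CPM.

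Receptors and co-receptors of S100 proteins divided, with 5 higher and 4 lower of 10 tested, where Il10rb, higher on counts, was at -0.0062 on the log2 TPM scale. Of all genes tested, 69.2% passed. Cd14, which passes ligands to TLR4, rose from 223 ± 3.40 to 364 ± 3.22 CPM. Cd36, a scavenger receptor, rose from 824 ± 19.8 to 962 ± 15.6 CPM. Alcam, an adhesion molecule, fell from 338 ± 8.16 to 185 ± 3.22 CPM and the sialic acid receptor gene Cd33 from 54.5 ± 1.35 to 38.5 ± 1.27 CPM. The textbook calprotectin receptor genes, chosen here after their values were seen, were Tlr4, with 116 ± 0.603 CPM for WT and 109.98 ± 4.10 for KO (adjusted p = 0.0359, the weakest call of the list), and Ager, encoding RAGE, with 0.13 ± 0.11 and 0.017 ± 0.029 CPM, too low to be tested. The number of receptors called lower was 3 in DESeq2, at an adjusted p of 0.01 and without any 1 of 5 libraries, all but KO library 1.

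Among partners inside the cell and at its membrane, 7 were higher and 13 lower of 24 tested, beside 34.4% higher and 34.9% lower of all genes. Of the lower ones, Dlc1 and Nos2 (named after their values were seen) entered the test only through WT, where they were higher. Cybb, a subunit of the NADPH oxidase to which calprotectin delivers arachidonic acid, rose from 1313 ± 19.3 to 2732 ± 43.4 CPM. Plau and Plaur, the urokinase and its receptor, fell from 160.3 ± 3.01 to 64.6 ± 1.29 CPM and from 183 ± 4.65 to 83.5 ± 2.94 CPM. Mdm2, whose protein can bind S100 proteins and degrades p53, fell from 168 ± 2.73 to 75.3 ± 0.980 CPM. The S100A4 partner Myh9 and the S100A10 and annexin A2 partner Ahnak, chosen after their values were seen, did not pass (1134 ± 30.2 and 1126 ± 15.4 CPM for Myh9, adjusted p = 0.629; 1045 ± 17.5 and 1019 ± 29.8 CPM for Ahnak, adjusted p = 0.0989).

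Of the annexins, calcium-dependent membrane binders that pair with S100 proteins, 4 were lower and 3 higher of 9 tested, where 69.2% of all genes passed. None was called higher without scaling beyond total counts, on log2(FPKM + 1), on log2(TPM + 1) or with the assumed coefficient of variation, and on log2(TPM + 1) 7 were lower, with Anxa2 and Anxa5 turned to lower values. Anxa4 fell from 526 ± 11.9 to 392 ± 8.77 CPM, Anxa6 from 286 ± 1.83 to 215 ± 3.30, Anxa3 from 116 ± 0.546 to 79.9 ± 1.69 and Anxa1, the partner of S100A11, from 535 ± 10.6 to 429 ± 5.41 CPM. Anxa2, the partner of S100A10 and chosen after its values were seen, had 748 ± 13.8 CPM for WT and 798 ± 4.78 for KO (log2 0.09, adjusted p = 3.66e-05; -0.05 on log2(TPM + 1), limma, adjusted p = 0.0523). S100a11 and Anxa1 thus differed in direction on the count scale, and so did S100a10 and Anxa2.

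Calmodulins and other EF-hand proteins rose in 20 and fell in 10 of 33 tested, with a median of 0.11, beside 34.4% higher and 34.9% lower of all genes. On log2(TPM + 1) the balance turned to 9 higher and 14 lower, with a median of -0.03, as 6 of those higher had lower values there. Calml4 entered the test only through KO and Rcn3 only through WT, in each case the group where it was higher. Both were named after their values were seen. Aif1, which encodes the macrophage actin-bundling protein IBA1, rose from 45.9 ± 0.683 to 121 ± 7.30 CPM. Calm2, a calmodulin gene, rose from 381 ± 8.40 to 509 ± 4.4 CPM, the myosin light chain gene Myl6 from 525 ± 21.4 to 683 ± 12.8 CPM and the calpain subunit gene Capns1 from 455 ± 4.81 to 593 ± 31.9 CPM. The plot of lists sets all of these beside the S100 genes.

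**Figure D5:**
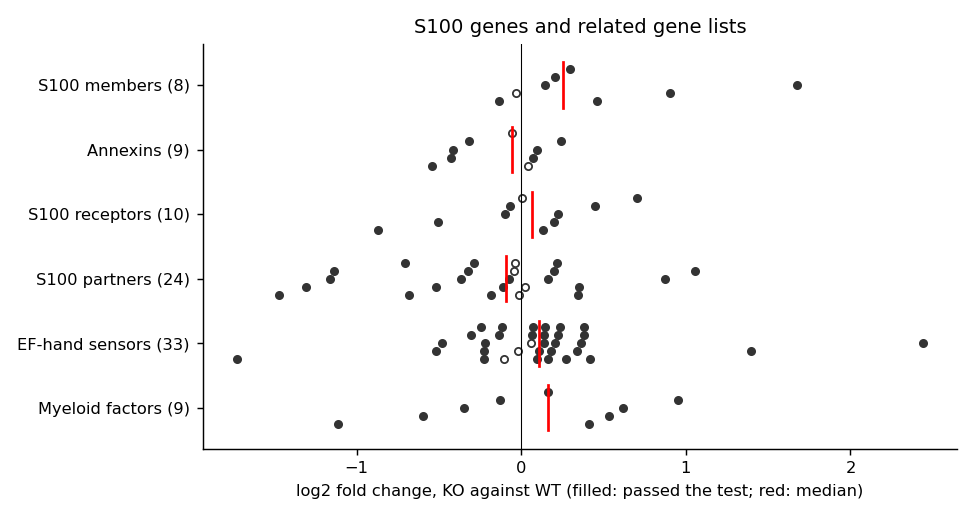
log2 fold change of KO against WT for the tested genes of 6 groups (number tested in brackets); filled points passed edgeR's test, open points did not, and red lines are medians. The S100 median is 0.25, and the annexin and partner medians are -0.05 and -0.09.

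Around the S100 genes on chromosome 3, 16 genes outside the S100 family within their span and 500 kb on either side were tested. All of them but Tchh lie before S100a1, and Tchh lies between S100a9 and S100a11. None lies between S100a1 and S100a9 or beyond S100a10. Of these 16, 7 were higher and 3 lower, with a median log2 fold change of 0.12, where 69.2% of all genes passed. S100a16, described above, also lies within the span (90537254 to 90543151) and is not among them. The nearest of the 16, Chtop, lies 1.5 kb from S100a1 and had 94.97 ± 1.27 CPM for WT and 93.5 ± 2.03 for KO (adjusted p = 0.52). Snapin rose (log2 0.21, adjusted p = 7.4e-06), Ilf2 fell (log2 -0.26, adjusted p = 8.21e-07), and Tchh, a hair follicle gene near S100a11, was at 1.39 ± 0.223 and 1.82 ± 0.342 CPM and did not pass (adjusted p = 0.101).

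Genes with a profile like that of S100a9 were found by the mean absolute difference of log2 CPM, each set on its WT mean, over the 6 libraries. Of 9578 genes whose mean over all libraries reached 5 CPM, the nearest were Btbd11 (difference 0.08; from 4.0 ± 0.371 to 12.5 ± 0.874 CPM), the formyl peptide receptor gene Fpr2 (0.09; from 55.0 ± 0.416 to 166 ± 3.34 CPM) and Fxyd2 (0.11; from 15.1 ± 0.882 to 46.2 ± 0.705 CPM), and 2 genes lay within 0.1. Btbd11 was below 5 CPM in WT and reached that mean through KO. For S100a4 the nearest were Wdtc1, Znrf1 and Sec61g, at differences of 0.015, 0.019 and 0.019, but 3069 genes lay within 0.1 of it, so its flat profile was a common one. With 6 libraries in 2 groups, such likeness mostly reflects the fold change between the groups.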

How the data were processed

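Per the labels' protocols, polyA-selected RNA of flow-sorted alveolar macrophages was sequenced. The submitters' processing notes list HISAT, Bowtie2 and GRCm38.p6, and not given in the sources used here are the counter, strand use and annotation. The deposited expected counts (estimated read counts, not whole for 8.66% to 9.19% of genes) were rounded. The authors' FPKM and TPM values were taken as deposited. The normalised count signal deposited by the authors was not used, and the log2(FPKM + 1) values of the authors' heat map table served only to see which members it holds.

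KO and WT were compared over all genes with edgeR 4.0.16 in R 4.3.3, by its quasi-likelihood test after TMM scaling and filterByExpr, with group as the only term. P-values were adjusted by Benjamini and Hochberg's method over the 11817 of 15824 genes that passed the filter, and 0.05 was the threshold. CPM are counts over TMM-adjusted library sizes. Alternatives used limma 3.58.1, DESeq2 1.42.0 and the settings of the closing section. Each library was counted as 1 sample. Libraries of a group differed beyond counting noise (chi-square per gene 1.38 to 1.61), which does not show whether they came from separate mice. Coordinates and promoters are from RefSeq and transcripts from GENCODE, both of GRCm38, and 15774 genes matched.

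The members and lists were chosen with earlier results of these data known. From each of the 6 gene lists the 4 genes with the smallest p were named, further names being marked, with the 4 nearest neighbours outside the S100 family on the chromosome and 3 most alike genes for the members with the highest fold change and level. The 11 marker lists were described by counts and summed levels. The gene test was checked on simulated data of KO against WT with 11682 genes: it called 37 of 50 genes changed 1.25-fold, 47 of 50 changed 1.5-fold, 50 of 50 changed 3-fold, 19 of 50 changed 1.1-fold and 5 of 11482 unchanged genes. The changed genes were few, above a minimum of WT counts and of random direction, and all genes shared a single dispersion. In the data 69.2% of genes passed, so the simulation does not measure the error rate under so broad a change.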

Additional observations from a re-analysis of the deposited data

How the results depend on the processing

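S100a8, S100a9, S100a1 and S100a13 were higher and passed in all 20 alternatives run on each, with log2 fold changes of 0.74 to 0.95, 1.42 to 1.79, 0.15 to 0.35 and 0.31 to 0.50. S100a11 turned to -0.010 on log2(TPM + 1) with and without the filter (adjusted p = 0.731 and 0.779, limma), and passed no longer with an assumed coefficient of variation of 0.1 (log2 0.15), nor did S100a10 (-0.14) and S100a6 (0.21). S100a6 also failed on log2(TPM + 1) at 0.059 with and without the filter. S100a4 passed as lower without scaling beyond total counts (-0.086), on log2(FPKM + 1) and log2(FPKM + 0.1) (both -0.10) and on log2(TPM + 1) with and without the filter (-0.19), and leaving out single libraries gave -0.066 to -0.0023. The cause was not tested.

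The number of members called, 7, was 4 with the assumed coefficient of variation and 1 with a 2-fold threshold, and leaving out single libraries gave 7 or 8. The number higher, 6, was 1 with the 2-fold threshold. The number lower, 1, was 2 without scaling beyond total counts, on both FPKM scales and on TPM with and without the filter, 0 with the assumed coefficient of variation and 0 with the 2-fold threshold, and 1 to 2 when single libraries were left out. Over all genes 8179 were called, 4060 of them higher. The calls numbered 4406 with the assumed coefficient of variation and 969 with the 2-fold threshold, and 7755 to 7935 when single libraries were left out, while on TPM 2463 genes were higher and 5781 lower. The narrowing of 1.23 between S100a8 and S100a9 and the other four stayed within 1.16 to 1.29. A fit without X and Y genes, chosen after seeing the data, changed no member's call. All members lie on chromosome 3, so that fit could alter only scaling, dispersion and adjustment. It does not separate genotype from the presence of Y-linked transcripts.

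The labels do not say whether the replicate numbers of the titles pair libraries across the groups. Deviations of same-numbered libraries correlated at -0.042, 0.031 and 0.024, and those of other pairs at -0.082 to 0.059. With 3 libraries per group these values cannot exclude pairing. With the replicate block 8321 genes passed and no member's call changed, with log2 fold changes of 0.90 for S100a8 and 1.67 for S100a9. The low counts of S100a9 and S100a16 limit their precision.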
